A study of Mus musculus with 2 samples.

Results

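The desmosomal cadherins are the transmembrane adhesion proteins of the desmosome, and the 8 mouse genes Dsg1a, Dsg1b, Dsg1c, Dsg2, Dsg3, Dsc1, Dsc2 and Dsc3 were taken by name as features of both single-cell count matrices. They are 8 of 31054 features in the normal library and 8 of 32285 in the wounded library. Their levels were read across the 4 cluster names that the deposited table gives to the normal cells, the 6 cluster names given to the wounded cells, and the cells that passed the study's filters but stand in neither table.

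Desmosomes join neighbouring epithelial cells and tie their keratin filaments together across the contact. Desmogleins (Dsg) and desmocollins (Dsc) bind each other outside the cell, and inside it their tails hold plakoglobin and plakophilins, which reach the keratins through desmoplakin. In the epidermis Dsg3 and Dsc3 are known as the cadherins of the deep layers and Dsg1 and Dsc1 as those of the upper layers. Dsg2 and Dsc2 are known as those of single-layered epithelia such as the gut. The anorectal transition zone (TZ) is the short strip where both kinds of epithelium meet, so each of these patterns has a place to show within one tissue.

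Cells came from the anorectal region of C57/BL6J mice that carry a tamoxifen-inducible Cre under the keratin 17 promoter and a GFP reporter (K17CreERT2;R26RGFP). The mice of both libraries had been injected with tamoxifen, those of the wounded library before the wound. Epcam-positive cells were sorted after gating out CD45, CD11b, CD31 and PDGFRa, and at least 5 mice were pooled for each library, so neither library can be split by animal. The normal library was unwounded. The wounded library was taken 1 week after rectal epithelium next to the TZ had been stripped with hot EDTA and a brush. There was 1 library per condition, hence no test between conditions or clusters was possible. Intervals below are exact and cover counting error only, and "called" means at least 2-fold apart with at least 20 unique molecular identifiers (UMIs, counts of single captured transcripts) over both groups. Levels are given in CPM, counts per 1e+06 UMIs of the cluster. These 3-prime counts give 1 UMI to a captured transcript whatever its length, so levels of different genes may be set side by side, though capture can still differ between genes.

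The normal table held 939 cells, with 432 named Anal Canal, 257 Basal, 187 Suprabasal and 63 Rectum. The wounded table held 4147 cells, with 573 named Basal, 1032 Suprabasal, 991 Regeneration, 838 Wound_Stress, 316 Hybrid and 397 Rectum. Median depth per cell lay between 8438 and 12616 UMIs in 9 of the 10 clusters and was 2390.0 UMIs in Hybrid. The 2 libraries shared 1 barcode, and 0 among the cells of the tables. The normal and wounded matrices carry headers of different Cell Ranger versions and feature lists of different length, so wound and library cannot be told apart.

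The names of the clusters were first set against their markers. Normal Basal cells had 48.4 CPM of Krt10, the keratin of differentiating layers, and normal Anal Canal cells had 2228 CPM. The wounded cluster named Basal had 1987 CPM of Krt10, and its 6 suprabasal markers summed to 10019 CPM against 377 CPM in normal Basal. Over 11590 genes its profile had a Pearson r of 0.931 with normal Anal Canal and 0.835 with normal Basal, as a description. Wounded Regeneration and Wound_Stress correlated most with normal Basal (r = 0.899 and 0.864). The 10 rectal markers summed to 12535 and 9859 CPM in normal and wounded Rectum, with Cdx2 alone at 0 in the normal one, and to between 150.3 and 375 CPM in the stratified clusters. The wounded name Basal is kept below only as a name.

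All 8 genes lie in 1 block of mouse chromosome 18 (mm10, GENCODE M21), between positions 19960930 and 20604521, a span of 644 kb that also holds Dsg4, a desmoglein of the hair with 2 UMIs in 1 Hybrid cell and none in the other table cells. Dsc3, Dsc2 and Dsc1 follow each other on the minus strand, and Dsg1c, Dsg1a, Dsg1b, Dsg4, Dsg3 and Dsg2 on the plus strand. The table cells held 1582 normal and 6996 wounded UMIs of Dsc3, 331 and 3249 of Dsg3, 394 and 2305 of Dsg2, 520 and 978 of Dsc2, 223 and 522 of Dsg1a, 53 and 418 of Dsc1, and 21 and 179 of Dsg1b. Dsg1c, with 2 and 12 UMIs, was close to unmeasured. The 3 Dsg1 genes share part of their sequence. Between 16.1% and 35.2% of the 90-base windows of each transcript occur in another copy, but 0% of those in the last 500 bases, where 3-prime counting reads. Of 30-base windows in these last bases, 18.0% of those of Dsg1b occur in another copy. Reads from shared stretches could not be told apart, and the split among the 3 copies is therefore less certain than their sum.

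The desmogleins showed 3 different patterns across the 10 clusters. Dsg1a, the Dsg1 copy with the most UMIs, reached 53.5 CPM (44.4 to 63.8) in normal Suprabasal and 23.1 CPM (18.8 to 28.0) in normal Anal Canal. It had 0 UMIs in normal Basal and normal Rectum. The limit of 3 UMIs used for zeros is 1.11 and 4.26 CPM there, and the exact intervals reach 1.36 and 5.24 CPM. In the wounded library Dsg1a stood at 43.8 CPM in Hybrid, 27.7 in Suprabasal, 17.8 in Basal, 1.70 in Rectum, 1.47 in Wound_Stress and 1.23 in Regeneration. It was thus high in the differentiated clusters of both libraries and at or near 0 in normal Basal, Regeneration and Wound_Stress. The order had a clear step, since the interval of wounded Basal lay above that of wounded Rectum, while 7 of the 9 neighbouring pairs in the order overlapped. Dsg1b followed Dsg1a at a lower level, from 10.1 CPM in wounded Suprabasal, 7.42 in Hybrid, 7.32 in wounded Basal, 5.26 in normal Suprabasal and 1.83 in normal Anal Canal down to 0.730 or less in the other 5 clusters. All 9 neighbouring pairs of Dsg1b overlapped.

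Dsg3, the deep-layer desmoglein of the epidermis, was at 169.5 CPM (162 to 177) in wounded Suprabasal and 129 CPM (119 to 138) in wounded Basal. The next levels of Dsg3 were 52.6 CPM in normal Suprabasal, 39.1 in Hybrid, 34.9 in normal Anal Canal, 26.5 in Regeneration, 21.4 in normal Basal and 16.1 in Wound_Stress. Wounded Rectum had 6.57 CPM of Dsg3, and normal Rectum 0 UMIs. Both leading clusters were wounded, and their intervals overlapped neither each other nor that of any normal cluster. Among the normal clusters Dsg3 was lowest in Basal of the 3 stratified names, although Basal alone had few suprabasal markers, at 377 CPM against 10103 in Suprabasal and 10155 in Anal Canal. The 6 basal markers did not set it apart, at 10865 CPM against 8411 and 18781 CPM.

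Dsg2, the desmoglein of single-layered epithelia, ran the other way. Its level was 131 CPM (105 to 160.2) in normal Rectum and 106 CPM (95.9 to 116) in wounded Rectum, and their intervals overlapped. The 7 clusters that followed lay between 32.9 and 60.0 CPM, from Hybrid through wounded Suprabasal, Wound_Stress, Regeneration, normal Basal and wounded Basal to normal Anal Canal, and each overlapped its neighbour. Normal Suprabasal stood apart at the low end, at 14.5 CPM (9.95 to 20.3). Dsg2 was the only one of the 8 genes besides Dsc2 with a UMI in all 10 clusters.

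The desmocollins differed from each other as much as the desmogleins did. Dsc3, the deep-layer desmocollin, had the most UMIs of the 8 genes in each of the 8 clusters other than Rectum. Its level was 294 CPM (284 to 304) in wounded Suprabasal, 246 in normal Suprabasal, 203 in Hybrid, 170.2 in wounded Basal, 166 in normal Basal, 131 in normal Anal Canal, 113 in Regeneration and 104 in Wound_Stress. It then dropped to 14.8 CPM (11.4 to 19.1) in wounded Rectum and 0 of 704191 UMIs in normal Rectum. Every stratified or Hybrid interval of Dsc3 lay above those of both Rectum clusters.

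Dsc1, the upper-layer desmocollin, tracked Dsg1a and Dsg1b. It was at 23.6 CPM in Hybrid, 22.3 in wounded Suprabasal, 17.1 in wounded Basal, 11.8 in normal Suprabasal and 5.71 in normal Anal Canal, and between 0 and 1.38 CPM in the other 5 clusters. Dsc2, the desmocollin found in simple as well as stratified epithelia, followed neither group. It was at 76.7 CPM (68.7 to 85.3) in normal Anal Canal, 63.1 in normal Suprabasal, 61.0 in wounded Basal and 40.5 in wounded Suprabasal, then at 31.2 in normal Rectum and 25.8 in wounded Rectum. It was low in Hybrid (6.74 CPM) and normal Basal (6.65 CPM) and lowest in Regeneration (2.23 CPM) and Wound_Stress (1.88 CPM). Dsc2 was hence present both in the simple cells and in the differentiated stratified cells, and scarce in normal Basal, Hybrid, Regeneration and Wound_Stress.

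**Figure D1:**
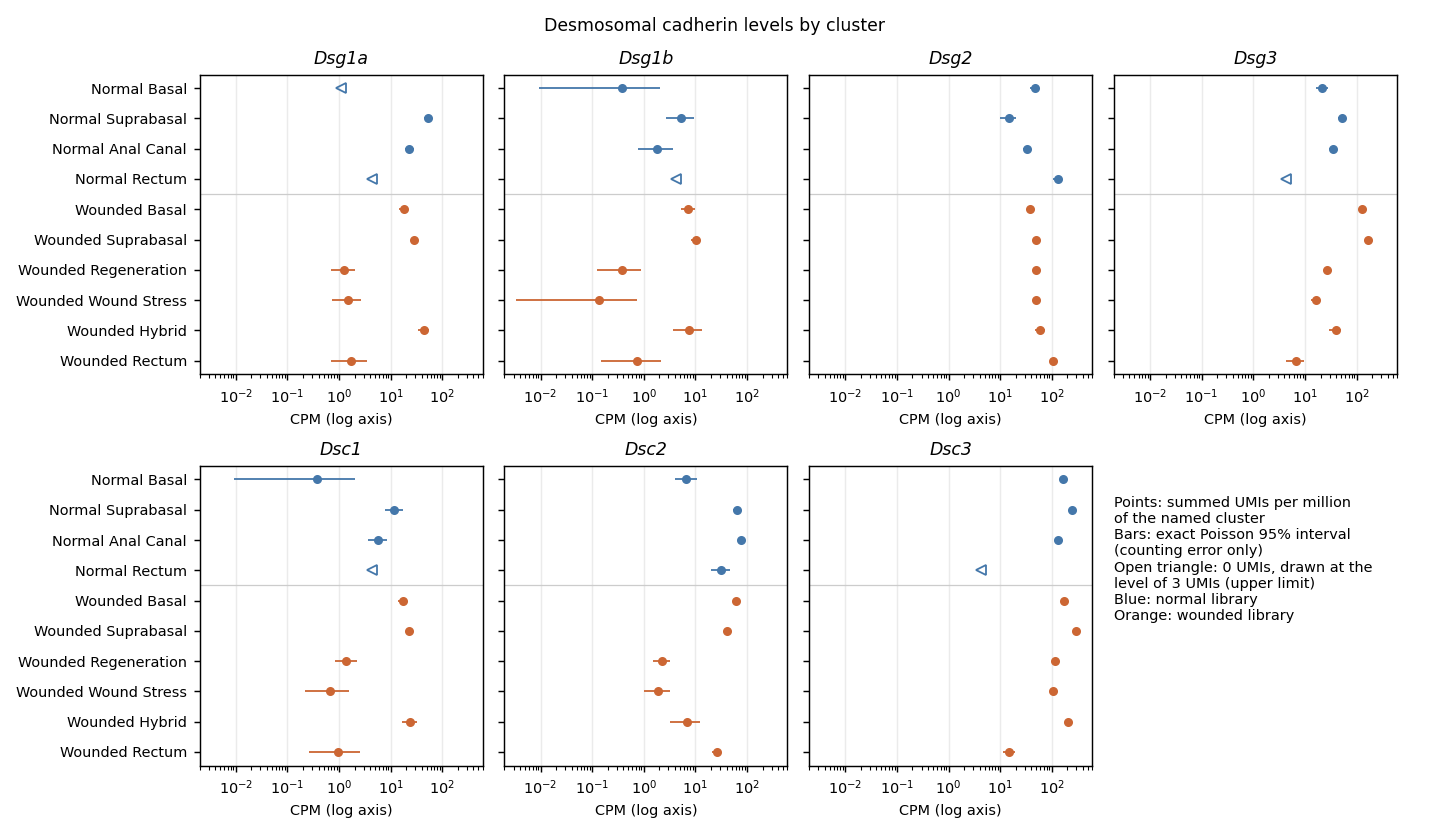
Level of 7 desmosomal cadherin genes in each named cluster, in CPM on a log axis, with exact Poisson 95% intervals as bars. Open triangles stand at the level of 3 UMIs where 0 UMIs were counted. Dsg2 peaks in both Rectum clusters (131 and 106 CPM), whereas Dsc3 lies between 104 and 294 CPM everywhere else and at 14.8 CPM or 0 UMIs in Rectum.

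Added up, the 8 genes gave 306, 241, 447 and 162 CPM in normal Anal Canal, Basal, Suprabasal and Rectum, and 439.9, 614, 193, 174, 384 and 156 CPM in wounded Basal, Suprabasal, Regeneration, Wound_Stress, Hybrid and Rectum. The mix changed more than the sum. In normal Rectum Dsg2 made up 80.7% of the cadherin UMIs and Dsc2 the other 19.3%. In normal Basal Dsc3 made up 68.8%, Dsg2 19.2% and Dsg3 8.91%. In normal Suprabasal Dsc3 was 54.9%, Dsc2 14.1%, Dsg1a 11.9%, Dsg3 11.8% and Dsg2 3.23%. Wounded Basal and Suprabasal gave Dsg3 the second place, with 29.2% and 27.6% of the UMIs. Desmocollins together were 69.7% to 71.7% of the cadherin UMIs in the 3 normal stratified clusters, 56.4% to 61.5% in the wounded clusters other than Rectum, and 19.3% and 26.6% in normal and wounded Rectum.

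**Figure D2:**
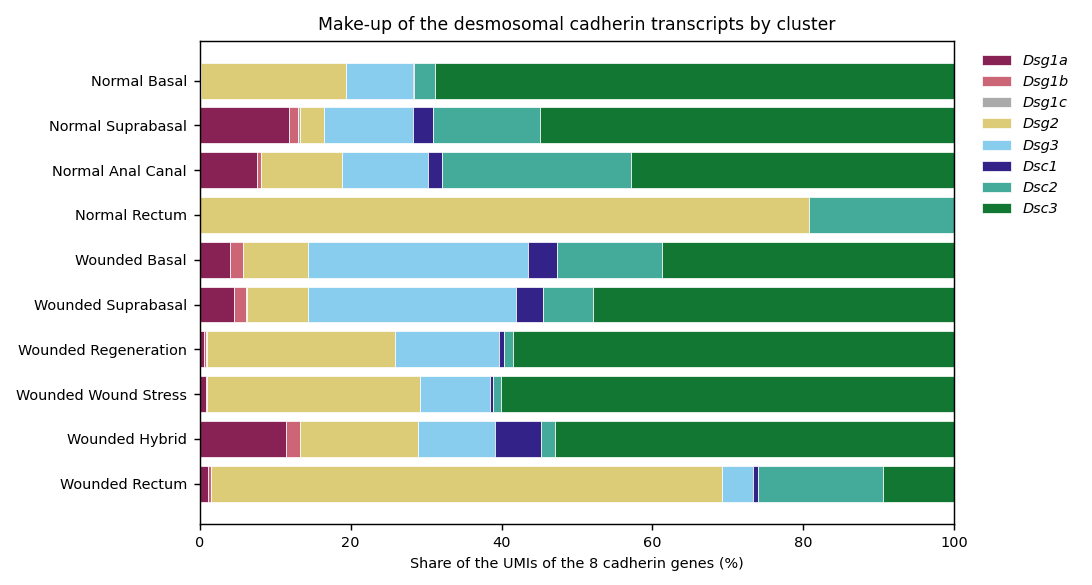
Share of the UMIs of the 8 desmosomal cadherins that each gene takes, in percent, as stacked bars for the 4 normal and 6 wounded clusters. Dsg2 fills 80.7% and 67.6% of the Rectum bars, and Dsc3 the largest part of all other bars, between 38.7% and 68.8%.

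The study built its named clusters from its most variable genes. When such genes were chosen again here, Dsc1, Dsc2 and Dsg1a were among them in both libraries. Dsg3 was among them in the wounded library only. The named clusters may therefore rest in part on these cadherins, and how far they do was not tested. Clusters rebuilt without the cadherins were among the other settings described at the end. The first comparison asked how the cadherins differ between the layers of the normal TZ. Dsg1a, Dsc1, Dsc2 and Dsg3 were higher in Suprabasal than in Basal, Dsg2 was lower, and Dsc3 differed by less than 2-fold. Of the 6 members with enough UMIs, 4 were called higher, where 6.57% of all 9682 genes tested were, and 1 was called lower, where 17.1% were. Their median log2 ratio was 2.27, beside -0.29 over all genes.

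Dsg1a was at least 48.2-fold higher, set against the limit of 3 UMIs in Basal. Such bounds set a group without UMIs at 3 UMIs. The exact interval, which covers counting error in both groups, gave a lower limit of 5.27 on the log2 scale in place of 5.59. Dsc1 rested on 27 and 1 UMIs and was 32.0-fold higher (log2 interval 2.40 to 10.36). Dsc2 rested on 144 and 18 UMIs, with a log2 ratio of 3.25 (2.53 to 4.04). The ratios of the upper-layer genes were thus large, and wide where Basal cells had almost no UMI. Dsg3 was 2.45-fold higher (log2 1.29, 0.83 to 1.77) and Dsc3 1.48-fold higher (log2 0.57, 0.39 to 0.75). Dsg2 had a log2 ratio of -1.68 (-2.28 to -1.11). Dsg1b, with 13 UMIs in all, was under the minimum. One gene, Cst6, took 8.73% of the Suprabasal UMIs, which lowers the CPM of every other gene there.

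Of the 10 fixed partner genes 8 could be read, 6 were called higher in Suprabasal and 0 lower, with a median log2 ratio of 1.23. They were Evpl (envoplakin, 2.25) and Ppl (periplakin, 1.13), which link desmosomes to the cornified envelope, Dsp (desmoplakin, 1.70), Jup (plakoglobin, 1.32), Pkp1 (plakophilin 1, 1.05) and Cdsn (corneodesmosin, 1.66). Pkp3 (-0.27) and Perp (0.63), a tetraspan desmosome protein, were within 2-fold.

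Normal Anal Canal was next set against both TZ clusters together. Dsc2 alone was called, at 76.7 against 32.5 CPM (log2 1.24, 0.96 to 1.52), which makes 1 of 7 members higher where 8.87% of genes were, and 0 lower where 9.97% were. Dsc3 was lower by less than 2-fold (131 against 202 CPM, log2 -0.63, -0.78 to -0.48). Dsg1a (-0.09), Dsg2 (0.05), Dsg3 (-0.03) and Dsc1 (0.02) had log2 ratios near 0, with intervals within 0.85 of 0, and Dsg1b (-0.51) rested on 21 UMIs. These ratios near 0 average over unlike TZ clusters, and Anal Canal lay between them. Dsg1a was at 23.1 CPM in Anal Canal, 0 in Basal and 53.5 in Suprabasal, and Dsg2 at 32.9, 46.2 and 14.5. Dsg3 was at 34.9, 21.4 and 52.6 CPM in the same order, and Dsc1 at 5.71, 0.370 and 11.8. Of the partners Evpl was higher (1.26) and Cdsn lower (-2.27).

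Normal Anal Canal cells held basal markers (18781 CPM for 6 genes) and suprabasal markers (10155 CPM for 6) together. They were therefore split by whether they held a UMI of Krt1 or Krt10, the paired keratins of differentiating cells, after every cell had been thinned to 2000 UMIs. There were 225 cells with such a UMI and 172 without, 35 cells under 2000 UMIs were left out, and 107 of the 225 held only 1 or 2 such UMIs. Dsg1a was at 33.1 CPM with and 4.95 CPM without (log2 2.74, 1.70 to 4.0), and all 24 UMIs of Dsc1 in the split cells lay in cells with Krt1 or Krt10. Dsg2 moved the opposite way, at 24.7 against 47.6 CPM (log2 -0.95, -1.44 to -0.46). The deep-layer genes moved less, with log2 ratios of 0.46 for Dsg3 and 0.74 for Dsc3, and Dsc2 was even at 78.4 and 74.8 CPM. Median depth was 10798 UMIs in the cells with and 7328 in those without. Asking for 3 UMIs of Krt1 or Krt10 gave log2 ratios of 3.87 for Dsg1a, 5.41 for Dsc1 and -2.11 for Dsg2.

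In the wounded cluster named Basal the same split was made after its Krt10 level had been seen, with 308 cells with and 256 without. Dsg1a was at 26.6 and 5.46 CPM (log2 2.28, 1.44 to 3.25), Dsg1b on 40 and 2 UMIs (3.83) and Dsc1 at 28.1 and 1.68 CPM (4.06, 2.66 to 5.97). Dsg2 was again lower in the cells with Krt1 or Krt10, at 25.7 against 54.2 CPM (-1.08, -1.49 to -0.67). Dsg3 (0.61), Dsc2 (0.77) and Dsc3 (0.63) had ratios under 2-fold. With 3 UMIs of Krt1 or Krt10 asked for, Dsc2 passed 2-fold (1.28, 0.96 to 1.61) and Dsg3 was at 0.91. In normal Suprabasal, where 41 of 183 cells held Krt1 or Krt10, the ratios were 0.82 for Dsg1a, 1.79 for Dsc1 and -0.82 for Dsc2. In wounded Suprabasal, with 104 of 1020 such cells, they were 1.47 for Dsg1a, 1.92 for Dsc1 and -0.46 for Dsg2. Dsg3 (-0.23, -0.45 to -0.02) and Dsc3 (-0.33, -0.50 to -0.16) were lower there in the cells with Krt1 or Krt10. That is the opposite direction to normal Anal Canal and wounded Basal. In normal Suprabasal Dsg3 (0.11) and Dsc3 (0.10) had intervals on both sides of 0. With 1 UMI asked for, Dsg1a and Dsc1 were therefore higher with Krt1 or Krt10 in each of the 4 clusters split, and Dsg2 had the lower level with them in the same 4, although in normal Suprabasal (-0.91) its interval reached 0.60. Asking for 3 UMIs left 16 such cells in normal Suprabasal, with a Dsg1a ratio of 0.41 whose interval ran from -0.55 to 1.24.

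**Figure D3:**
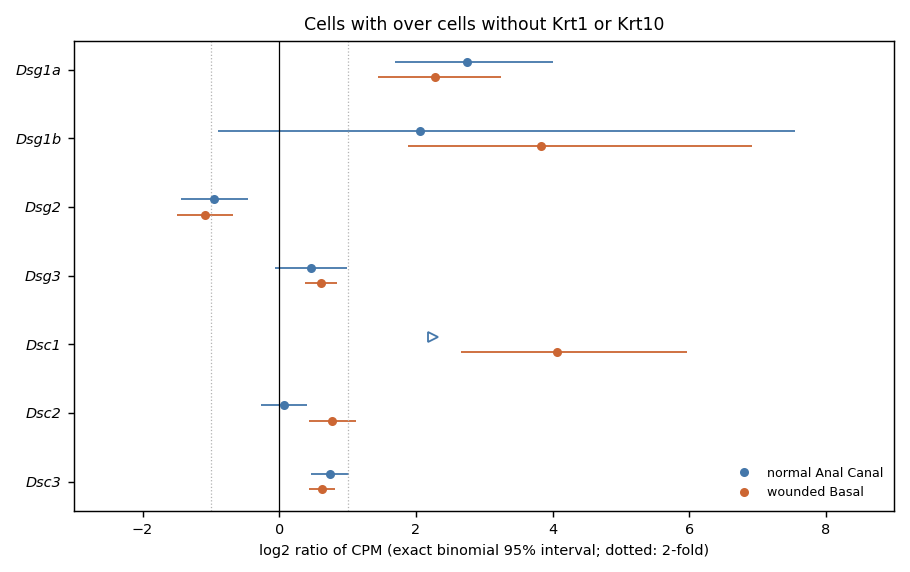
Log2 ratio of the level of each cadherin in cells with over cells without a UMI of Krt1 or Krt10, for normal Anal Canal and for the wounded cluster named Basal, with exact binomial 95% intervals; the triangle is a lower bound and dotted lines mark 2-fold. Dsg1a (2.74 and 2.28) and Dsc1 lie to the right, Dsg2 (-0.95 and -1.08) to the left, in both clusters.

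Simple and stratified epithelium were then compared in the normal library, Rectum against the other 3 clusters together. Dsg2 was the cadherin that was higher in Rectum, at 131 against 32.2 CPM (log2 2.02, 1.67 to 2.36), and Dsc2 was shared by both. Dsg1a, Dsg3 and Dsc3 had 0 UMIs in 63 rectal cells. Of 7 members 1 was called higher where 17.5% of genes were, a count near that share, and 3 lower where 14.9% were.

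Against the limit of 4.26 CPM the level in Rectum was at least 39.6-fold lower for Dsc3, 8.29-fold for Dsg3 and 5.59-fold for Dsg1a, and with counting error these bounds were -5.01, -2.75 and -2.17 on the log2 scale. Dsg1b and Dsc1 also had 0 UMIs, but their stratified levels of 2.24 and 5.66 CPM were too low for a call at this depth. Dsc2 was 1.70-fold lower, at 31.2 against 53.2 CPM (log2 -0.77, -1.45 to -0.15). Of 9 partners read, Pkp2 (plakophilin 2, the plakophilin of simple epithelia and heart) was higher, at 36.9 against 1.71 CPM (log2 4.43), and 7 were lower, from Evpl (-1.36) and Dsp (-1.52) to Perp (-2.82) and Ppl (-4.12). The partners moved with a median of -1.80, beside 0.10 for all genes. Dsp, the plakin that every desmosome uses, still gave 170.4 CPM in Rectum.

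In the wounded library, with 397 rectal cells, Dsg2 was again the cadherin that was higher in Rectum. It was at 106 CPM in Rectum and 47.2 CPM in the 4 stratified clusters (log2 1.16, 1.01 to 1.31). That makes 1 of 7 members called higher where 18.4% of genes were, a count near that share. The pooled stratified level hides unlike cells. A Krt15-rich group of 507 wounded Suprabasal cells, described below, held 84.1 CPM of Dsg2 (75.6 to 93.3), close to Rectum (95.9 to 116). Size factors in place of UMI totals gave 0.97 for Dsg2, just under 2-fold. Dsg3 (-3.67), Dsc3 (-3.56), Dsc1 (-3.37), Dsg1a (-2.81) and Dsg1b (-2.58) were called lower, 5 of 7 members, where 15.7% of genes were. Dsc2 was at 25.8 and 22.8 CPM, a log2 ratio of 0.18 (-0.13 to 0.47). Pkp2 was again higher (3.28), and 7 partners were lower.

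Unlike normal Rectum, wounded Rectum did hold stratified cadherin UMIs, and markers of stratified cells moved with them. Its 6 basal markers summed to 573 CPM, all of them above 0, against 3885 to 13016 CPM in the 4 wounded stratified clusters. In normal Rectum they summed to 216 CPM with Col17a1 at 0, against 8411 to 18781 CPM. Krt14, the basal keratin, had 1399 UMIs in wounded Rectum and 67 in normal Rectum. Per 1000 Krt14 UMIs, wounded Rectum had 43.6 UMIs of Dsc3 and the wounded stratified cells 35.9 (log2 0.28, -0.11 to 0.65), and 19.3 against 17.1 of Dsg3 (0.17, -0.43 to 0.72). At the stratified ratio its Krt14 would come with 50.2 Dsc3 UMIs and 23.9 Dsg3 UMIs, and 61 and 27 were counted. Krt5, the keratin partner of Krt14, had 239 against 227 UMIs per 1000 (0.08). Dsc3, Dsg3 and Krt5 stood to Krt14 in wounded Rectum as they did in the 4 stratified clusters pooled, within counting error. Dsg2 and Dsc2 did not, at 310.2 against 9.63 (log2 5.01) and 75.8 against 4.66 (4.02) per 1000 Krt14 UMIs. The stratified clusters were not set against Rectum one by one here. The source of the Dsc3 and Dsg3 UMIs in wounded Rectum was not tested. In normal Rectum the 67 Krt14 UMIs would come with 1.29 Dsc3 UMIs at the stratified ratio, and 0 were counted.

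In the other direction Dsg2 was set against Krt8, the keratin of simple epithelia. Normal and wounded Rectum had 47.7 and 44.3 Dsg2 UMIs per 1000 Krt8 UMIs. Normal Anal Canal, Basal and Suprabasal had 1297, 592 and 121, and wounded Basal, Suprabasal, Regeneration and Wound_Stress 1373, 375, 893 and 1344. At the rectal ratio the Krt8 of normal Basal would come with 10.1 Dsg2 UMIs, and 125 were counted. Each stratified cluster had more Dsg2 than its Krt8 UMIs carry in Rectum, with the smallest excess in normal Suprabasal, where 33 UMIs were counted against 13.0. Krt8 itself had a UMI in 44.9% of normal Suprabasal cells. Of the 10 rectal markers, Krt8 among them, 8 had a UMI in that cluster and 3 were over 10 CPM. Muc13 and Cdx2 were at 0 there. How far Krt8 gauges rectal RNA in these clusters was not tested, nor was the source of their Dsg2.

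**Figure D4:**
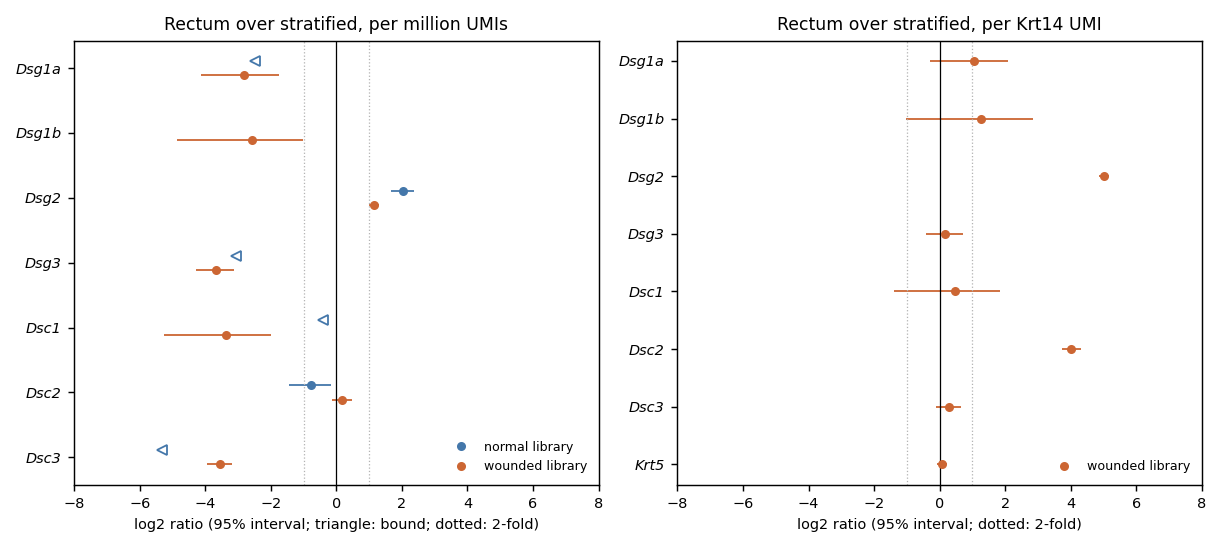
Log2 ratio of Rectum over the stratified clusters for each cadherin, by CPM in both libraries (left) and per Krt14 UMI in the wounded library with Krt5 as a gauge (right); bars are exact binomial 95% intervals, triangles bounds and dotted lines 2-fold. Dsg3 (-3.67) and Dsc3 (-3.56) lie to the left by CPM and at 0.17 and 0.28 per Krt14 UMI, whereas Dsg2 and Dsc2 lie at 5.01 and 4.02.

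Cell by cell the same contrast was seen after thinning to 2000 UMIs. Dsc3 had a UMI in 44.3% of normal Suprabasal cells (36.9 to 51.8; 88.2% before thinning), 27.5% of Basal, 23.2% of Anal Canal and 0 of 60 Rectum cells, with an exact interval that reaches 5.96%. In the wounded library Dsc3 was found in 44.2% of Suprabasal, 27.3% of Basal, 27.2% of Hybrid, 20.8% of Wound_Stress, 20.7% of Regeneration and 2.54% of Rectum cells. Dsg2 was found in 21.7% of normal and 21.5% of wounded Rectum cells (61.9% and 52.9% before thinning). The share with Dsg2 ran from 2.73% in normal Suprabasal to 11.4% in Hybrid among the other 8 clusters. A desmoglein and a desmocollin were caught in the same thinned cell in 16.4% of normal and 19.9% of wounded Suprabasal cells. That share was 0% in normal and 1.98% in wounded Rectum.

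For the layers after the wound, the clusters as named gave a flat picture. Of 7 members 0 were called higher in Suprabasal than in Basal, where 9.85% of genes were, and 0 lower, where 11.3% were. Dsc3 (0.79, 0.69 to 0.89) and Dsg1a (0.64, 0.32 to 0.98) had the highest log2 ratios, then Dsg1b (0.47), Dsg3 (0.40), Dsg2 (0.38, 0.15 to 0.61) and Dsc1 (0.38). Dsc2 was lower (-0.59, -0.79 to -0.39). The wounded cluster named Basal already held the suprabasal markers given above, so the 2 names do not stand for 2 layers here as they do in the normal library.

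Wounded Suprabasal itself was mixed. When the cells were clustered again without the members and their partners, 465 of its 1032 cells fell in a cluster rich in Cst6 (86571 CPM) and 507 in a cluster rich in Krt15 (2248 CPM), a basal keratin. The Cst6-rich cells correlated most with normal Suprabasal (r = 0.935) and the Krt15-rich cells with normal Basal (r = 0.910). Between these groups, which were chosen after the data were seen and get no test, Dsg1a was at 43.6 and 2.82 CPM (log2 3.95), Dsg1b at 15.1 and 2.35 (2.69), Dsc1 at 35.2 and 1.88 (4.23) and Dsc2 at 61.4 and 7.76 (2.99). Dsg2 was at 26.2 and 84.1 CPM (log2 -1.68, -1.95 to -1.42). Dsg3 (203 and 117 CPM, 0.80) and Dsc3 (305 and 276 CPM, 0.14) differed by less than 2-fold. Dsg1a, Dsc1 and Dsc2 were thus more than 2-fold higher in normal Suprabasal over Basal and in Cst6-rich over Krt15-rich wounded cells. Dsg2 was at -1.68 in both comparisons, while Dsg3 reached 2-fold in the normal one only. Krt10 was at 129.7 and 22.8 CPM in the Cst6-rich and Krt15-rich cells, under the 1987 CPM of wounded Basal. Whether the Cst6-rich cells form an upper layer was not tested.

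**Figure D5:**
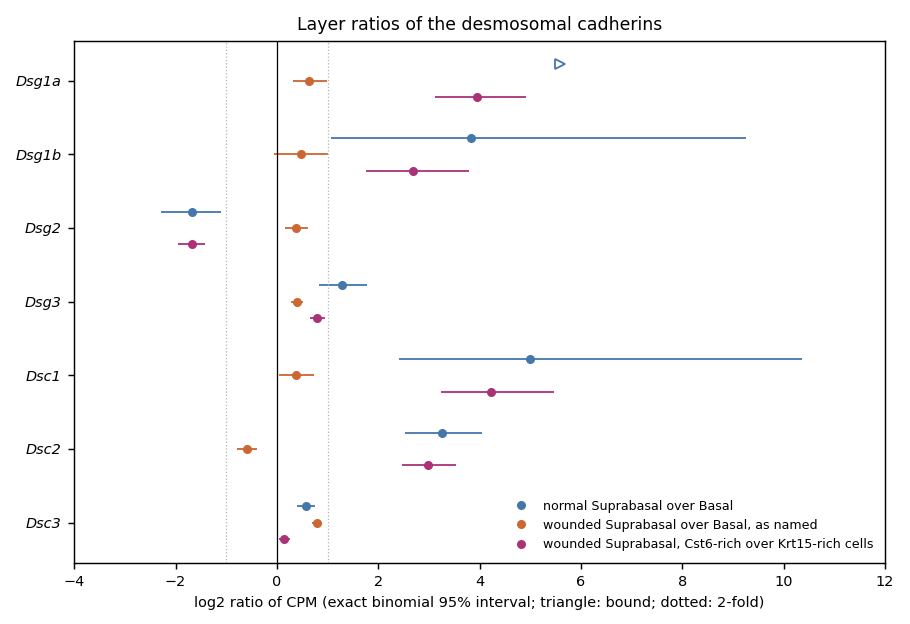
Log2 ratio for 7 cadherins of normal Suprabasal over Basal, of the wounded clusters with the same names, and of Cst6-rich over Krt15-rich cells within wounded Suprabasal. The wounded names do not stand for 2 layers. Bars are exact binomial 95% intervals, the triangle a lower bound and dotted lines 2-fold. The wounded clusters as named stay within 2-fold of 0, while the Cst6-rich cells lie at 3.95 for Dsg1a, 4.23 for Dsc1 and -1.68 for Dsg2.

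The clusters named for the wound, Regeneration and Wound_Stress, held few cadherins other than Dsc3, Dsg2 and Dsg3. Against wounded Basal, 5 of 7 members were called lower in Regeneration, where 13.8% of genes were, and 0 higher, where 11.8% were. Dsc2 (61.0 to 2.23 CPM, log2 -4.77), Dsg1b (-4.25), Dsg1a (-3.85), Dsc1 (-3.62) and Dsg3 (129 to 26.5 CPM, -2.28) made up the 5. Dsc3 (-0.59, -0.71 to -0.47) and Dsg2 (0.35, 0.13 to 0.58) differed by less than 2-fold. In Wound_Stress the same 5 genes were called lower, where 12.8% of genes were, and 0 higher, where 10.3% were, with log2 ratios of -3.59 for Dsg1a, -4.67 for Dsc1, -5.02 for Dsc2 and -5.77 for Dsg1b, and a 7.99-fold lower level of Dsg3. Dsc3 (-0.71) and Dsg2 (0.38) were again within 2-fold. Both comparisons share the Basal cells. Thinned to 2000 UMIs, each called 3 members lower, since the other 2 of the 5, still more than 2-fold lower, then had under 20 UMIs.

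Partner genes were also lower in these clusters. Jup (-1.51 and -2.03), Pkp1 (-1.46 and -1.42), Ppl (-2.89 and -3.96), Evpl (-4.32 and -4.42) and Perp (-1.02 and -1.14) were lower in Regeneration and in Wound_Stress, and Dsp (-1.33) in Wound_Stress. Pkp2 alone was higher, in Regeneration (1.47). The suprabasal markers moved with these genes, summing to 165 CPM in Regeneration and 204 CPM in Wound_Stress against 10019 CPM in wounded Basal. Their part in the ratios was not tested.

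Both clusters were also set against normal Basal, which has few suprabasal markers as well. Only 4 of the 8 members had enough UMIs in each comparison. Dsg1a, Dsg1b, Dsg1c and Dsc1 were under the minimum and could not be read. The 4 that were read differed less than against wounded Basal. Dsc2 was lower in Regeneration (log2 -1.57, -2.47 to -0.64), 1 of 4 members where 13.6% of genes were. It was also lower in Wound_Stress (-1.82, -2.94 to -0.73), 1 of 4 where 14.4% were. None of the 4 was higher in either, where 11.7% and 15.0% of genes were. Dsg2 (0.07 and 0.10), Dsg3 (0.31 and -0.41) and Dsc3 (-0.54 and -0.66) lay within 2-fold. Partner genes were lower here too: Ppl (-1.01) and Evpl (-1.16) were called in Regeneration, 2 of 8, and Jup (-1.07), Pkp3 (79.9 against 160.3 CPM, 2.01-fold), Ppl (-2.07) and Evpl (-1.27) in Wound_Stress, 4 of 7. No partner was called higher in either. These comparisons were added after the markers of wounded Basal had been seen.

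The Hybrid cluster, which the study named for cells between TZ and rectum, carried a stratified set of cadherins. Against wounded Basal, Dsg1a was higher (43.8 and 17.8 CPM, log2 1.30, 0.83 to 1.77), 1 of 7 members where 13.5% of genes were, and Dsg3 (-1.72) and Dsc2 (-3.18) were lower, where 6.76% were. The deposited whole numbers gave 0.76 for Dsg1a there. Against wounded Rectum, Dsg1a (4.69), Dsc1 (4.60), Dsc3 (3.77) and Dsg3 (2.57) were higher, 4 of 6 members where 13.4% of genes were, and Dsc2 was lower (-1.94), where 13.9% were. Dsg2 was at 60.0 CPM (48.2 to 73.9), within 2-fold of the 37.8 CPM of Basal and the 106 CPM of Rectum (log2 0.67 and -0.82), and its interval overlapped that of wounded Suprabasal (49.2 CPM, 45.3 to 53.5). Pkp2, the partner that marked Rectum, was at 4.05 CPM in Hybrid and 30.9 CPM in Rectum (log2 -2.93).

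Hybrid cells did not share one cadherin profile. By UMIs of fixed marker lists, 46 of its 316 cells held at least 5 UMIs of inner root sheath genes of the hair. Another 43 held as many of enteroendocrine genes and 35 of endothelial genes, and 192 remained. The inner root sheath cells had Dsc3 at 324 CPM, Dsg1a at 97.5, Dsc1 at 59.0, Dsg2 at 54.4 and Dsg3 at 34.0, with 0 UMIs of Dsc2, which allow up to 6.81 CPM. The enteroendocrine cells had Dsg2 at 62.2 CPM, Dsc3 at 31.1, Dsg3 and Dsc2 at 10.4 each, and 0 UMIs of Dsg1a, Dsg1b and Dsc1. The enteroendocrine cells also held stratified keratins, with Krt14 at 2308 CPM and Krt17 at 1332 CPM beside Krt8 at 1282 CPM. Over the classes Krt14 did not follow Dsc3, and was lowest in the inner root sheath cells, which had the most Dsc3. Krt14 was at 469.6 CPM in the inner root sheath, 1414 CPM in the endothelial and 3256 CPM in the remaining cells. Its part in the Dsc3 and Dsg3 UMIs of these classes was not tested. The 192 others had Dsc3 at 231 CPM (193 to 274), Dsg2 at 59.0 (40.6 to 82.9), Dsg3 at 50.1 and Dsg1a at 39.3. The 46 inner root sheath cells held 43 of the 65 Dsg1a UMIs and 26 of the 35 Dsc1 UMIs of the whole cluster. Of the 35 endothelial cells 17 lay near the minimum, and the 35 held 17 UMIs of Dsc3 and 11 of Dsg3. Depth in Hybrid was low, with 132 of 316 cells under 2000 UMIs.

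Wounded and normal clusters of the same name were compared last. Here CPM were taken over the features that both libraries list. In Basal, 5 of 7 members were called higher in the wounded library, where 15.7% of genes were, and 0 lower, where 13.5% were: Dsc1 (log2 5.53, on 98 and 1 UMIs), Dsg1b (4.31, on 42 and 1), Dsg1a (at least 16.1-fold, or log2 3.68 with counting error), Dsc2 (9.19-fold) and Dsg3 (6.02-fold). Dsg2 (-0.29) and Dsc3 (0.04, -0.12 to 0.21) stayed within 2-fold. Against normal Anal Canal, which wounded Basal resembles more, Dsg1b (2.01), Dsg3 (1.88, 1.63 to 2.15) and Dsc1 (1.59) were higher, where 10.2% of genes were, and 0 lower, where 6.92% were. Dsg1a (-0.37), Dsc2 (-0.33) and Dsc3 (0.38) were then within 2-fold. Dsg3, Dsg1b and Dsc1 were called higher against either normal cluster.

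In Suprabasal, Dsg2 (1.77, 1.26 to 2.32) and Dsg3 (1.69, 1.43 to 1.97) were called higher in the wounded library, 2 of 7 members where 16.2% of genes were, and 0 lower, where 5.59% were. Dsg1b (0.95), Dsc1 (0.92), Dsc3 (0.26), Dsc2 (-0.64) and Dsg1a (-0.94) were within 2-fold. The 507 Krt15-rich cells of wounded Suprabasal held 84.1 CPM of Dsg2 and the Cst6-rich cells 26.2 CPM (22.5 to 30.2). Normal Suprabasal had 14.5 CPM (9.95 to 20.3), below both groups. Dsg3 was also higher in both groups, at 117 and 203 CPM against 52.6 CPM in normal Suprabasal. The part of this mix of cells in the ratios was not tested. In Rectum, Dsc3 was at least 3.50-fold higher in the wounded library (log2 1.46 with counting error), 1 of 4 members where 11.8% of genes were, and 0 were lower, where 6.34% were. The 61 Dsc3 UMIs behind it are those set against Krt14 above, and in cells under 10% mitochondrial UMIs the bound was 0.57 on the log2 scale and no call was made. Dsg2 (-0.30, -0.63 to 0.04) and Dsc2 (-0.27, -0.94 to 0.46) differed by less than 2-fold between the Rectum clusters.

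A further 610 normal and 1078 wounded cells passed the filters but were in neither table, and they were grouped by clusters rebuilt without the cadherins and their partners. Hair follicle-like cells were not one population. The 186 normal cells were led by Lhx2, Tbx1 and Nppc and had Dsc3 at 354 CPM (323 to 387), Dsg1a at 96.1, Dsg3 at 62.3, Dsg2 at 54.3 and Dsg1b at 12.5. The 114 wounded cells were led by Rnase12, Krt16 and Pdzrn3, other genes than in the normal library, and had Dsc3 at 604 CPM (561 to 649), Dsg3 at 290.5, Dsg1a at 123, Dsg2 at 66.0 and Dsg1b at 41.3. These values are therefore no comparison of wounded with normal cells of one kind. At a finer clustering (resolution 0.4 in place of 0.2) another 146 wounded cells took the same name, with Nppc, Tbx1, Lgr5 and Lhx2 among their 10 leading genes. Those 146 cells had Dsc3 at 274 CPM (243 to 308), Dsg2 and Dsg3 at 78.7 each and Dsg1a at 13.9 (7.63 to 23.4). Dsc1 was at 0.733, 0.825 and 0 CPM in the 186, 114 and 146 cells, on at most 1 UMI each, and Dsc2 at 5.13, 1.65 and 0 CPM. In the 5 table clusters with most Dsg1a, by contrast, Dsc1 was at 5.71 to 23.6 CPM. Anal gland-like cells, named from gland markers, held mainly Dsc3 (79.8 CPM in 329 normal and 91.2 CPM in 425 wounded cells) and Dsg2 (27.3 and 17.7 CPM). Their Dsg3 was at 3.76 and 1.66 CPM. At the finer clustering 195 of the 329 and 138 of the 425 cells kept the name. Another 134 normal cells fell in an unnamed cluster led by Saa3, Egr4 and Pdk4. In the wounded library 287 fell in an unnamed cluster led by Mc5r, Gpd1 and Secisbp2l. The levels given are thus averages over cells that the finer clustering set apart. Fibroblast-like cells, 65 in the normal library and led by Actg2, Col3a1 and Des, had 1 UMI of Dsc2 and no other cadherin UMI. At the finer clustering 36 of the 65 stayed fibroblast-like. The other 29 fell in an endothelial-like cluster led by Hba-a1, Hbb-bs and Actg2. In the wounded library 33 endothelial-like cells had 0 cadherin UMIs. Of the wounded clusters that could not be named, 2 held over 100 cells. One, of 369 cells, was mixed, with gut hormone genes (Pyy, Insl5, Ppy) and fibroblast genes (Adamdec1, Col1a2, Pdgfra) among its 10 leading genes. At the finer clustering 186 of the 369 fell in a fibroblast-like cluster, 145 among the hair follicle-like cells just described and 38 in an unnamed cluster, and none with the cells led by Pyy. Its Dsc3 level of 117 CPM is thus an average over unlike cells, and the fibroblast-like cluster had 7.63 CPM of Dsc3 and 8.90 CPM of Dsg2. The other, 104 cells led by Rgs5, Myh11 and Des, held Dsg2 at 8.43 CPM and Dsc3 at 7.02 CPM. The other rebuilt clusters held at most 24 such cells each.

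Likeness of the members over the 10 table clusters is given as correlations of log2(CPM + 1) without a test. Clusters of 1 library share its depth and preparation. Pearson r was 0.98 between Dsg1b and Dsc1, 0.95 between Dsg1a and Dsc1, 0.92 between Dsg3 and Dsc3, -0.76 between Dsg2 and Dsc3 and -0.08 between Dsc2 and Dsc3. The deep-layer genes also ran with the upper-layer genes, at 0.81 between Dsg3 and Dsc1, 0.79 between Dsg3 and Dsg1b, 0.72 between Dsg3 and Dsg1a and 0.64 between Dsc3 and Dsc1. Among 11606 genes the patterns most like Dsg1a were those of Endou (0.98), Tgm5 (0.98) and Rhbg (0.96). Dsc1 and Dsg1b were each most like the other, then Ntng1 (0.98 for both) and Zfp750 (0.96 and 0.95). Dsg2 was most like Tmem35b (0.97), Dgkd (0.96) and Tnfrsf11a (0.96). Dsg3 was most like Fbln1 (0.95), Tiam1 (0.95) and Clip4 (0.94), Dsc2 like Cltb (0.97), Eif6 (0.97) and Mall (0.93), and Dsc3 like Trim29 (0.99), Crip2 (0.98) and Kctd1 (0.98).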

How the data were processed

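Epcam-positive anorectal cells of mice were profiled by droplet 3-prime RNA-seq in 1 normal and 1 wounded library. The authors made the deposited matrices of raw UMI counts with Cell Ranger (3.1.0 in the processing notes; the wounded header reads 4.0.0) on mm10. The deposited tables, made with Seurat 3.2.2, carry the authors' cluster names and values on a natural log scale that, raised to the exponential and lowered by 1, are whole numbers (within 1e-06). These are not the UMI counts and the step behind them is not given in the sources used here, so they served as an alternative only. Cells outside the tables were kept with over 200 and under 5000 genes and under 25% mitochondrial UMIs. The libraries held 17617944 and 88260050 UMIs. UMIs were summed per cluster as CPM with Poisson intervals, ratios carried binomial intervals, and shares used 1 random thinning to 2000 UMIs (Python 3.11.15, scipy 1.17.1). Tests on simulated data checked the ratios. A level of 3 UMIs bounded zeros. Reclustering used Seurat 5.3.0 with 2000 variable features, 10 components and resolution 0.2. Doublets were not called. All 8 members were described, partners past 2-fold were named, and 3 genes most like each member were taken. The members and lists were chosen with earlier results of these data known. Sequences of the members are not reported here.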

Additional observations from a re-analysis of the deposited data

Results flagged for a closer look

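For 2 genes the ratio of Suprabasal over Basal pointed one way in the normal library and the other way in the wounded library. The log2 ratio of Dsg2 was -1.68 in the normal and 0.38 in the wounded library. That of Dsc2 was 3.25 in the normal and -0.59 in the wounded library. With 1 library per condition the difference between the libraries was not tested. The wounded cluster named Basal held the suprabasal markers, as given above.

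Barcodes that failed the filters also held cadherin UMIs, at 147 CPM for the 8 genes together over 1015 normal barcodes and 152 CPM over 11991 wounded barcodes. Their median mitochondrial share was 75.3% and 60.0%. Dsg2 alone was at 39.8 and 83.7 CPM in them.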

How the results depend on the processing

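No paired analysis was possible because each condition has 1 library. Of the 260 counts and main values recomputed, 215 stayed within 1.5 times or their interval and 45 moved. Of 598 alternative member ratios, 516 stayed within their interval and 82 moved. Those of members at least 2-fold apart numbered 325, and 325 kept their direction. Each setting reused the same UMIs, so the kept direction is a description and no independent support. Ratios where a group without UMIs left a bound on the wrong side of 0 were left out of the 598 and the 325. Among these were Dsg1b in wounded over normal Basal and Dsc3 in wounded over normal Rectum, both thinned to 2000 UMIs. Size factors shifted the median gene by -0.20 to 0.21 on the log2 scale. They gave 0 members higher in wounded Rectum than in stratified cells and 4 higher in wounded than normal Suprabasal.

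Thinned to 2000 UMIs, members called lower numbered 3 in Regeneration, 3 in Wound_Stress and 3 in wounded Rectum. Thinning also left 2 higher in Hybrid than in Rectum, 3 higher and 0 higher in wounded than normal Basal and Rectum, and 2 lower in wounded Suprabasal. A 1.5-fold threshold called 1 member lower in Anal Canal, 2 higher and 1 lower in wounded Suprabasal over Basal, 2 higher in Hybrid over Basal and 2 lower over Rectum, and for wounded over normal 4 higher and 2 lower in Suprabasal and 2 higher in Rectum. With at least 100 UMIs, 1 was higher in Hybrid over Rectum, and 3 and 0 in wounded over normal Basal and Rectum. Cells under 10% mitochondrial UMIs gave 1 higher in wounded Suprabasal over Basal, 2 in Hybrid over Basal and 0 in wounded over normal Rectum. Means of per-cell CPM gave 2 higher in Hybrid over Basal, 2 lower in Hybrid over Rectum and 1 lower in wounded over normal Suprabasal. The deposited whole numbers gave 0, 2 and 1 for the same comparisons. Leaving out the 5% of cells with most UMIs gave 1 lower in wounded over normal Suprabasal, and rebuilt clusters 0 lower in Hybrid over Rectum. The share of all genes called was not computed under these other settings.

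Chosen after seeing the data, the Cst6-rich over Krt15-rich cells gave 4 higher and 1 lower, and wounded Basal over normal Anal Canal 3 higher. For the Cst6-rich over Krt15-rich cells the share of all genes called was not computed, so their counts stand without that measure. Regeneration and Wound_Stress over normal Basal, also chosen then, gave 0 higher and 1 lower each, of 4 members read. At 1000 UMIs the share of cells was 25.7% for Dsc3 in normal Suprabasal, 14.6% for Dsg3 in wounded Suprabasal and 15.9% for Dsg2 in wounded Rectum. The split at 3 UMIs of Krt1 or Krt10 gave -2.11 for Dsg2 in Anal Canal. Resolution 0.4 gave 455 CPM of Dsc3 in wounded hair follicle-like cells and 21.7 and 9.15 CPM of Dsg2 in normal and wounded anal gland-like cells. Where a count moved without its construction showing why, the cause was not tested. Depth limits Dsg1c in all clusters and every zero in the 63 normal Rectum cells.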
